A study of Mus musculus with 2 samples.

Results

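A DNase I footprint is a short stretch inside an open chromatin region that the nuclease cut less often than the DNA beside it, and a wide one is DNA that a large protein, or several proteins side by side, can cover. The regions described here are the wide footprints called in both libraries of the mouse right cerebral cortex. They are the replicate 1 footprints of 25 bp or more that overlapped, by 50% or more of both, a replicate 2 footprint of 20 bp or more. This rule kept 18094 of the 394531 replicate 1 footprints (4.59%), each with a partner of its own among the 241645 footprints of replicate 2. Footprint width and the call in both libraries chose the members, so widths are given below as a description and support nothing. They were set beside 57774 narrower shared footprints (under 25 bp in replicate 1 and overlapped in the same way by a replicate 2 footprint of any width) and 17579 wide footprints of replicate 1 without such a replicate 2 partner of 20 bp or more.

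DNase-seq had been done on right cerebral cortex from B6CASTF1/J males, the F1 offspring of C57BL/6J and CAST/EiJ parents, when they were 2 months old. The series held 1 group with 2 biological replicates, numbered in the labels as animals 5 (replicate 1) and 6 (replicate 2), although both carry the same donor record. No treatment or second genotype was compared, the tissue was not sorted into cell types, and no p-value was computed. Read depth is unknown, and the 95% intervals below cover counting error only. As a check of the tissue, 8 of 8 marker genes of cortical excitatory neurons had a strict promoter peak in replicate 1 and 6 of 8 in replicate 2, as did 4 of 5 astrocyte and 3 of 5 oligodendrocyte genes in each library, 3 and 2 of 6 inhibitory neuron genes and 3 and 1 of 4 endothelial genes, against 0 of 4 hindbrain genes and 1 of 4 liver genes in each library. None of 5 microglial genes had one in either library, and over all 21924 protein-coding genes 13829 had one in replicate 1 and 12925 in replicate 2.

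Some DNA-binding proteins leave long footprints because they use many contacts. CTCF, a protein that marks boundaries and loop anchors of chromosome domains, reads its core site with the central zinc fingers of a long array, and further fingers can contact a separate stretch upstream of the core. RNA polymerase III promoters of tRNA genes are covered by the factor TFIIIB just upstream of the gene and by TFIIIC on the A and B boxes inside it. NFI and RFX proteins bind as dimers to paired elements, and CREB and ATF proteins bind the cAMP response element as dimers. The sequences that follow are GRCm38.p6 reference sequence (mm10 coordinates), which stands for 1 allele of these hybrid animals, and each is written 5′ to 3′ on the strand given.

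The first set shows CTCF members with a long and with a short upstream side, described further below. Each line runs from 30 bases before to 19 bases after the core. Capitals mark the 11-base core and, before it, the letters that match the upstream word TGCANTNCC. The first 3 had long footprints in both libraries and the next 3 short ones. They were chosen after their values were seen, from single-copy members of each form in tall peaks whose printed stretch touched no annotated UTR. Those of the long form were also required to hold 6 or more of the 7 fixed letters of the word.
Prmt3 promoter, chr7:49778212-49778271, plus strand: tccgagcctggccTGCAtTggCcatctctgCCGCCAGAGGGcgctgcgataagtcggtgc
Fam43a upstream, chr16:30597153-30597212, plus strand: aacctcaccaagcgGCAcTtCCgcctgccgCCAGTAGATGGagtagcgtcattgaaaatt
Psrc1 downstream, chr3:108389434-108389493, minus strand: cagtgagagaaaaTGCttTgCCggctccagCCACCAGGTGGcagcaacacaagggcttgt
Rrs1 promoter, chr1:9545320-9545379, minus strand: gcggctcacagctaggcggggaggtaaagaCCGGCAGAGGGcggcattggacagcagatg
Fem1a promoter, chr17:56255938-56255997, minus strand: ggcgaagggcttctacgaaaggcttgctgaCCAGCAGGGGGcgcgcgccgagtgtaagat
Stxbp3 promoter, chr3:108840673-108840732, minus strand: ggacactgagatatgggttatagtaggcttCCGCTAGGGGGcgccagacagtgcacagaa

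The second set holds 3 of the widest members, which lay across the first base of a tRNA gene. Capitals mark the bases inside the tRNA gene as annotated by RefSeq.
n-TLtag1, chr7:120835548-120835612, minus strand: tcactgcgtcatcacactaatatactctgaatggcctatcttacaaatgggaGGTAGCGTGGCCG
n-TScga2, chr10:128458532-128458594, minus strand: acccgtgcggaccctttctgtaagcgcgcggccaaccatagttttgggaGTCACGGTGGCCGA
n-TYgta9, chr5:30888028-30888090, plus strand: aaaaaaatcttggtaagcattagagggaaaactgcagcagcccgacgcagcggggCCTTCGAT

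The third set shows members with other motifs that were many times more frequent in members than in control windows, with 5 bases added on each side and the motif in capitals. In order they hold the full NFI element, the full RFX element and an NRF1 element. The NFI and RFX members were picked after their values were seen.
Irf2bp2 distal, chr8:126666630-126666668, plus strand: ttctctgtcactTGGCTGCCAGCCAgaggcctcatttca
Cfap97d1 promoter, chr11:101984197-101984243, plus strand: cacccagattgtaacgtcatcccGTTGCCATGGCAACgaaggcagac
9330198N18Rik exon, chr2:30658675-30658719, minus strand: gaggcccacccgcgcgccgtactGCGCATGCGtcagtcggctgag

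The members were wider in replicate 1 than in replicate 2. Their median width was 34 bp in replicate 1 (quartiles 29 and 42) and 28 bp in their replicate 2 partners (quartiles 24 and 32), and 84.8% were wider in replicate 1 while 9.37% were wider in replicate 2. The widest reached 75 bp in replicate 1 and 68 bp in replicate 2. Both edges lay within 2 bp of those of the partner in 25.9% of members, and at least 1 edge did in 78.6%, a share that includes those with both. Across the 18094 pairs Spearman's rho of the widths was 0.548, a description over footprints of the same 2 libraries. Widths were not spread evenly. In replicate 1 the number of members had a maximum of 1120 at 29 bp, a low of 418 at 40 bp and a second maximum of 642 at 45 bp, and in replicate 2 partners a smaller rise lay at 41 bp, with 283.

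**Figure D1:**
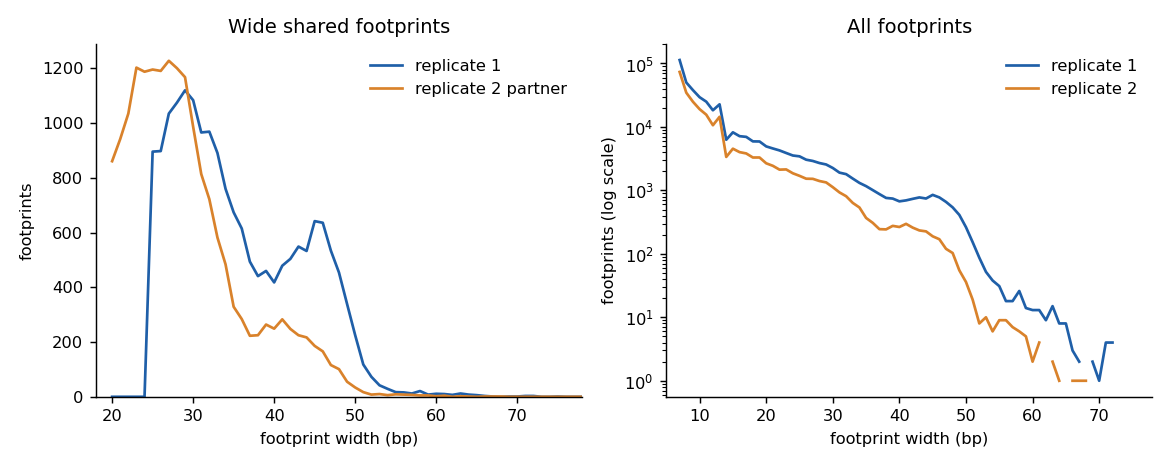
Number of footprints (y axis) by footprint width in bp (x axis), for the 18094 wide shared footprints and their replicate 2 partners (left) and for all footprints of each library (right, log scale). Replicate 1 members have a second maximum at 45 bp, with 642 footprints, above a low of 418 at 40 bp.

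At the width limit the members ran smoothly into the footprints left out. The 1794 members of 25 or 26 bp had a median peak height of 2.79 in replicate 1, 55.4% of them lay at promoters and 12.2% held a CTCF motif. The 1622 shared footprints of 23 or 24 bp just outside had 2.87, 56.2% and 10.2%. No break in these measures marks the limit of 25 bp.

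Members lay at gene starts less often than narrower shared footprints and in intergenic DNA more often. Of the members, 39.9% had their centre within 1000 bp of a GENCODE M21 transcript start (95% counting interval 39.1% to 40.6%), against 47.3% of the narrower shared footprints (46.9% to 47.7%). Intergenic DNA held 30.2% of members and 23.4% of narrower shared footprints, introns 26.3% and 26.1%, and exons away from starts 3.63% and 3.14%. Members without a CTCF motif had 49.2% at promoters (48.3% to 50.1%), above the narrower shared footprints, and 25.4% in intergenic DNA. Those with the motif had 15.6% and 42.7%. Wide footprints of replicate 1 without a partner had 40.7% at promoters, close to the members, and 25.8% in intergenic DNA. The promoter share of members also moved with their width. It was 52.6% at 25 to 27 bp, 22.8% at 46 to 48 bp and 49.8% at 52 bp or more, while the share with a CTCF motif was 14.0%, 37.4% and 12.6% in the same classes.

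Within promoters the members sat upstream of the start. Their median position was 43 bp before it, 75.9% of the 7213 promoter members were upstream, and 47.2% lay in the 100 bp just before it. For the 27343 narrower shared footprints at promoters the median was 27 bp before the start, with 64.7% upstream and 37.4% in the same 100 bp. The members also sat nearer the middle of their peaks, a median of 14 bp from the centre of the strict replicate 1 peak that held them, against 47.5 bp for narrower shared footprints.

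Motif content was read as the number of members that held a consensus, with 5 bp added on each side, over the number of windows of the same width that held it in the same strict replicate 1 peak off all footprints of either library. Such a control window was found for 13687 members (75.6%), and members without one were left out of the ratios. Members were richer in G and C than their controls, with a median of 61.5% against 51.6%. Ratios with controls within 5% in GC content are therefore given beside many of those below. Such a GC-matched control was found for 7720 members only, so these ratios rest on fewer members than the main ones. Any of the 36 listed motifs occurred in 7478 members and 2356 controls, a ratio of 3.17 (95% counting interval 3.03 to 3.33). Among narrower shared footprints the ratio was 2.63 (2.54 to 2.73). Without CTCF the order of these ratios turned, at 1.88 (1.79 to 1.98) in members and 2.51 (2.43 to 2.61) in narrower shared footprints. Controls had the width of their footprint, so those of members were longer. Without CTCF a listed motif was in 32.1% of members and 17.1% of their controls. For narrower shared footprints these shares were 22.9% and 9.11%.

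CTCF was the most frequent motif of the members. Its core consensus was held by 5016 of the 18094 members (27.7%), by 912 of the 57774 narrower shared footprints (1.58%) and by 1899 of the 17579 wide footprints of replicate 1 without a partner (10.8%). Against control windows, 3742 members and 23 controls held it, a ratio of 163 (108 to 257). For all footprints of 25 bp or more in replicate 2 taken alone, the ratio was 385, outside this interval, and for those in replicate 1 taken alone it was 119. The ratio was 20.5 (14.6 to 29.6) in narrower shared footprints and 71.1 (46.4 to 115) in wide footprints of replicate 1 without a partner. With GC-matched controls it was 111 in members, and the letters of the consensus in reverse order gave 3.14 (1.30 to 8.71). The consensus restricts 10 positions, some of which accept more than 1 base. When 1 of these positions was allowed to differ, 52.3% of members held a match and the ratio to controls was 16.4 (14.8 to 18.1). This allowance was chosen after the data were seen. This looser match reached 77.96% of members of 46 to 48 bp.

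CTCF members lay away from promoters. Only 15.6% of them were at a promoter, against 49.2% of members without the motif, and 42.7% were intergenic, against 25.4%. CTCF motifs were in 38.7% of members outside promoters that had a control and in 10.2% of those at promoters. The width of the holding footprint covered the whole core in 99.5% of cases in replicate 1.

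Around the CTCF core the downstream edge of the footprint had 1 preferred position in replicate 1 and the upstream edge had 2. In replicate 1 the downstream edge most often lay 12 bp past the core, in 719 members. The upstream edge was most often 5 or 6 bp before the core, in 615 and 607 members, and again 23 bp before it, in 402 members, with a low of 51 members at 12 bp. In replicate 2 the same positions appeared, with 1228 members at 5 bp and 175 at 22 bp, and the downstream edge had its maximum at 12 bp, in 600 members, and a smaller one at 8 bp, in 480. A cut at 13 bp, chosen after these values were seen, divided the members into 971 with a long upstream side in both libraries, 1471 long in replicate 1 only, 43 long in replicate 2 only and 2531 short in both. The median replicate 1 width was 45 bp in the first of these groups, 43 bp in those long in replicate 1 only and 31 bp in those short in both. The long form was thus called far more often in replicate 1, in 48.7% of CTCF members, than in replicate 2, in 20.2%.

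The DNA before the core differed between these forms. At 16 bp before the core 69.2% of members long in both libraries had G, against 28.2% of those short in both. At 12 bp before it 73.6% and 37.5% had T, and at 10 bp before it 68.5% and 29.6% had C. Together the letters that stood out read TGCANTNCC, written from 17 to 9 bp before the core, and were picked from these same members. Counting 5 or more of its 7 fixed letters at 18 or 17 bp before the core, 613 of the 971 members long in both held the word (63.1%, 60.01% to 66.2%), 393 of the 1471 long in replicate 1 only (26.7%, 24.5% to 29.1%) and 211 of the 2531 short in both (8.34%, 7.29% to 9.48%). At 30 or 29 bp before the core the same count gave 3.605%, 2.92% and 3.48%. The word and its position were both picked from these members, so this contrast is a description only.

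**Figure D2:**
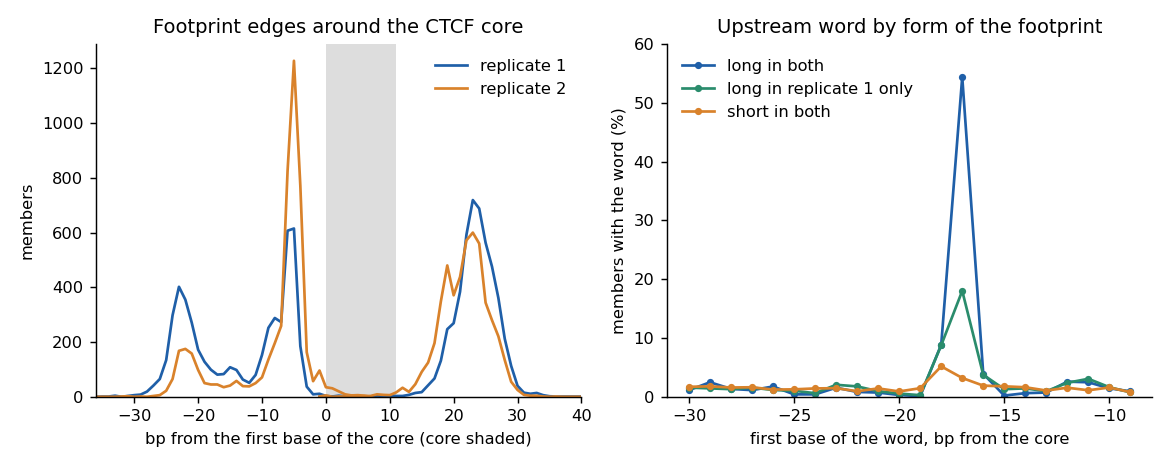
Left, number of CTCF members (y axis) whose footprint began or ended at each distance in bp from the first base of the core (x axis; core shaded), for each library. The upstream edge has maxima at 5 and 23 bp before the core in replicate 1, and the downstream edge has 1 there and a second, smaller one in replicate 2. Right, percent of members of each form (y axis) with 5 or more letters of the upstream word starting at each position before the core (x axis), highest at 17 bp before it for the 971 members long in both libraries, at 54.4%.

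Footprints outside the members did not choose the word. Among the 1899 wide CTCF footprints of replicate 1 without a partner, the upstream side was long in 72.6% of the 434 with the word (68.1% to 76.7%) and in 32.5% of the 1465 without it (30.1% to 34.96%). Median peak heights of these subsets were 1.15 and 1.14. The 1899 footprints were kept for a replicate 1 width of 25 bp or more, and the long side was read on that same width. Their contrast is therefore a description as well. The word was in 22.9% of these 1899, in 16.1% of the 912 narrower shared CTCF footprints and in 8.34% of members short in both. Among narrower shared CTCF footprints, whose width under 25 bp leaves little room for a long side, it was long in 1 of 147 with the word (0.680%, 0.0172% to 3.73%) and in 8 of 765 without it (1.05%, 0.453% to 2.05%). In members, from which the word was picked for this very difference, the values are a description only. Their long form was called in replicate 1 for 82.1% of the 1226 with the word and 37.9% of the 3790 without it, with median heights of 2.18 and 2.02. Peak height moved with the form as well. With the word, the share of the long form rose over 5 equal classes of members from low to high peaks, with 58.3%, 71.4%, 88.6%, 90.4% and 98.6% in replicate 1, and without it with 25.6%, 31.6%, 37.1%, 46.2% and 51.5%. In replicate 2 the tallest class had 76.1% with the word and 18.1% without it. The part of depth in the form was not tested.

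Motifs of other dimers and of promoter factors were also far more frequent in members than in controls. The CREB/ATF element TGACGTCA, which mediates responses to cAMP and neuronal activity, was in 260 members and 4 controls, a ratio of 65.0 (25.1 to 240), against 46.2 (20.9 to 127) in narrower shared footprints. It was in 1.81% of all members and 0.537% of narrower shared footprints, and 88.1% of the members with it were at promoters. The full NFI element, bound by nuclear factor I dimers that act in glial and neuronal differentiation, was in 250 members and 7 controls, a ratio of 35.7 (17.1 to 89.7), and 25.4% of members with it were at promoters. Among narrower shared footprints 216 and 9 of their controls held it, and the intervals of the 2 sets overlapped (12.4 to 53.2 in the narrower ones). The single RFX element GTTGCCATG, bound by regulators of cilia genes and of MHC class II genes, gave 146 members and 6 controls, a ratio of 24.3 (10.9 to 67.4), and the full paired element 47 members and 1 control, a ratio of 47.0 (8.03 to 1895). The EGR element GCGTGGGCG, read by activity-induced zinc finger factors, was in 59 members and 1 control, a ratio of 59.0 (10.2 to 2369), and with GC-matched controls in 21 members and 0 controls. With so few controls these intervals are wide and overlap, and the motifs cannot be ranked. Narrower shared footprints had ratios of 21.5 (12.1 to 42.2) for the single RFX element and 141 (24.9 to 5608) for EGR, also with overlapping intervals.

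GC-rich motifs need their composition beside them. The NRF1 element GCGCANGCG, of an activator of mitochondrial and housekeeping genes, had a ratio of 16.8 (11.4 to 25.8) and 8.30 with GC-matched controls. SP/KLF boxes, GGGGCGGG, had 12.7 (9.66 to 17.0) and 4.78. MAZ elements, GGGGAGGGG, had 11.9 (7.16 to 21.3) and 4.35. The NRF1 letters in reverse order had 7.72 (4.71 to 13.4) and 4.06, and a plain GC word with no assigned factor 8.47 (5.11 to 14.9) and 2.57. Promoters held 92.9% of NRF1 members and 92.7% of SP/KLF members. Among narrower shared footprints NRF1 had 15.3 (11.9 to 20.1) and SP/KLF 11.4 (9.67 to 13.4), intervals that overlap those of the members. The ZNF143 element ACTACAATT, of a zinc finger factor of promoters and loop anchors, had 28 members and 3 controls, a ratio of 9.33 (2.88 to 47.97). With GC-matched controls 16 members and 0 controls held it. The NEUROD E-box CAGATGG, read by proneural basic helix-loop-helix factors, can lie within a CTCF core, and 374 members held both. With windows that held the exact CTCF core consensus left out, its ratio was 4.98 (3.77 to 6.69), against 5.29 (4.50 to 6.25) in narrower shared footprints. Windows with only the looser CTCF match stayed in. How many of these E-boxes lay in such a match was not counted, so the ratio is not free of CTCF. ZBTB33 and E2F elements had ratios of 2.54 (1.30 to 5.26) and 2.04 (1.22 to 3.53), and of 2.88 and 1.92 with GC-matched controls.

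**Figure D3:**
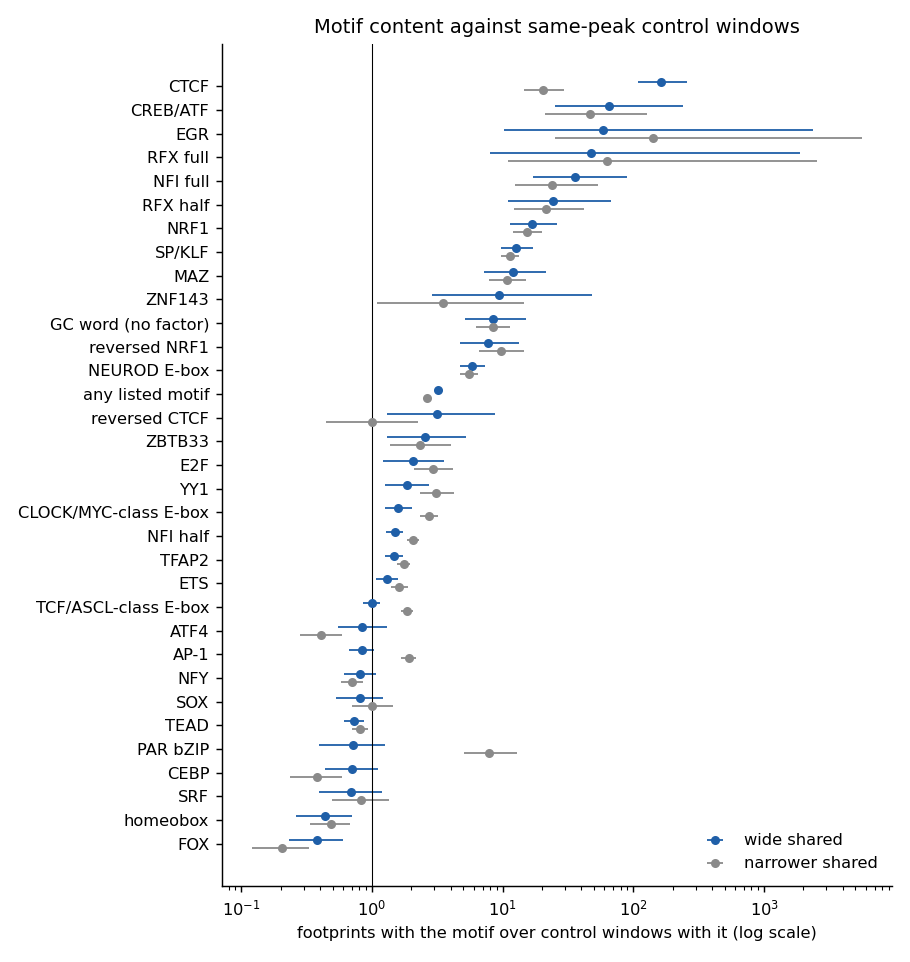
Ratio of footprints with a motif to same-peak control windows with it (x axis, log scale), for motifs with 20 or more members that have a control (y axis), with exact 95% counting intervals. Wide shared footprints are blue and narrower shared footprints grey. CTCF stands at 163 in wide and 20.5 in narrower shared footprints, and PAR bZIP at 0.71 and 7.91.

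Several motifs had ratios in members that were lower than in narrower shared footprints, or below 1. The PAR bZIP element TTANGTAA, of the clock-controlled factors DBP, TEF and HLF, was in 22 members and 31 controls, a ratio of 0.71 (0.392 to 1.27), against 7.91 (5.06 to 12.9) in narrower shared footprints. With GC-matched controls 11 members and 8 controls held it. AP-1 elements, TGANTCA, of FOS and JUN dimers, had 0.831 (0.668 to 1.03), against 1.90 (1.67 to 2.17). The E-box CAGCTG had 0.992 (0.853 to 1.15) in members and 1.85 (1.68 to 2.04) in narrower shared footprints. With windows that held the exact CTCF core consensus left out, it had 1.27 (1.06 to 1.52) and 1.88 (1.70 to 2.08). For CACGTG, the CLOCK and MYC class E-box, the ratios were 1.58 (1.25 to 2.01) and 2.74 (2.34 to 3.20). CCAAT boxes of NFY had 0.814 (0.615 to 1.07), TEAD elements 0.728 (0.610 to 0.867), homeobox elements 0.433 (0.262 to 0.697) and FOX elements 0.377 (0.230 to 0.599). In narrower shared footprints these stood below 1 as well, with 0.707 for NFY, 0.81 for TEAD, 0.481 for homeobox and 0.204 for FOX elements. With GC-matched controls several of these ratios in members turned to 1 or above, at 1.75 for homeobox (14 members and 8 controls), 1.38 for PAR bZIP, 1.24 for AP-1, 1.07 for FOX and 1.02 for NFY elements. TEAD stayed below 1, at 0.838, and so did CAGCTG, at 0.714 (182 members and 255 controls). GC-matched ratios were not computed for narrower shared footprints. Controls of members were also longer, and the shares behind the ratios differed in kind. CAGCTG was in 2.56% of members and 2.50% of narrower shared footprints with a control. Their controls held it in 2.58% and 1.35%. PAR bZIP was in 0.161% of such members and 0.376% of such narrower footprints, and in 0.226% and 0.0475% of their controls.

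Distances from motif to footprint edge differed between factors. Around the NFI element, a palindrome read here on the plus strand, the edges lay a median of 7 bp before and 9 bp after it in replicate 1, and 5 and 6 bp in replicate 2. The CREB/ATF element, also a palindrome, had 9 and 11 bp in replicate 1. NRF1 elements had 12 bp before and 9 bp after, and 25.5% of the 581 members with this motif held more than 1 match. Both strands were searched, and a near-palindromic NRF1 site can match on each. These matches are therefore not a count of separate sites. The ZNF143 element lay close to the upstream edge, a median of 4 bp from it, with 21 bp after it in replicate 1 and 19 bp in replicate 2.

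No listed motif was found in 8320 members (45.98%). The looser CTCF match was in 3592 of these, which left 4728 members (26.1%) with neither. Of these 59.9% were at promoters, and their median width was 32 bp. Among the 3628 of them with a control the word of 8 letters CCGCCCAC was in 135 members and 2 controls. The word CGTCATCA was in 44 members and 1 control. These words were found by search and carry no test.

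Many of the widest members lay at tRNA genes. Of the 10 widest by mean width, 7 had a RefSeq tRNA gene within 100 bp, while the 3 widest of all did not. The search for tRNA genes was made after their sequences were seen. In all, 238 members had their centre within 100 bp of 1 of 403 tRNA genes (1.32%, 1.15% to 1.49%), against 194 narrower shared footprints (0.336%, 0.290% to 0.386%) and 77 wide footprints of replicate 1 without a partner (0.438%, 0.346% to 0.547%). They made up 62 of the 285 members of 52 bp or more (21.8%), the other 223 lying elsewhere, and 0.369% of members of 46 to 48 bp. Of the tRNA genes, 245 had a strict replicate 1 peak within 100 bp, and 164 had a member.

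Members at tRNA genes took 2 positions. The 80 members that crossed the first base of the gene ran from a median of 49 bp before it (quartiles 51 and 46) to 8.5 bp after it (quartiles 5 and 12) in replicate 1, with a median width of 58 bp. In replicate 2 the same members ran from 47 bp before to 2 bp after it. A further 44 lay wholly upstream, from a median of 51 bp before the first base to 11 bp before it, with the same outer edge. The other 114 lay inside or past the gene, from a median of 39 bp after the first base to 76 bp after it, and 41 to 74 bp in replicate 2. At 69 tRNA genes a member that crossed or lay before the first base was present together with a member after it. The central 25 bases occurred more than once in the assembly in 83.3% of the downstream members and in none of the other 124, and how the alignment handled such repeats is not stated.

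**Figure D4:**
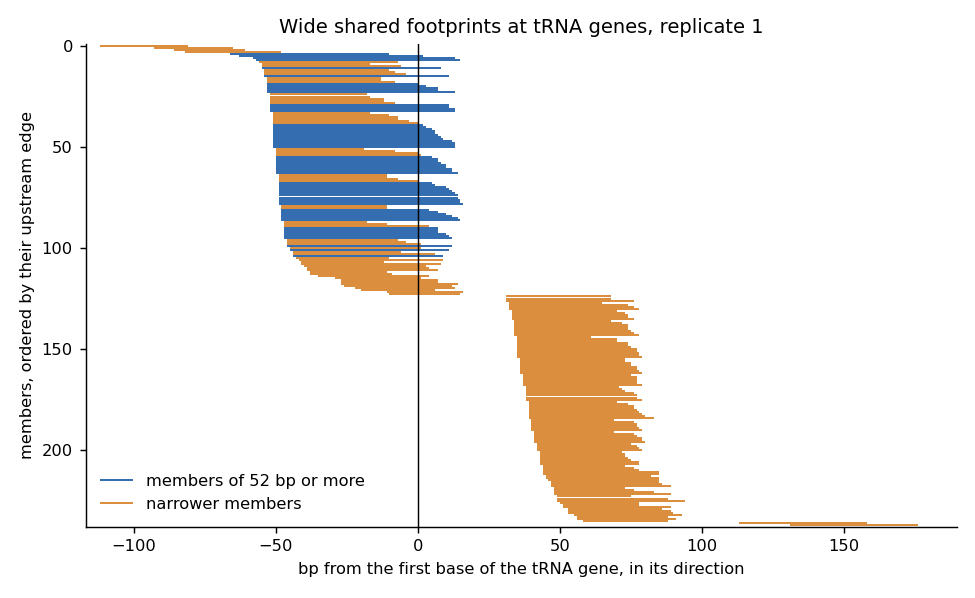
The 238 wide shared footprints at tRNA genes in replicate 1, 1 horizontal line each, drawn from their first to their last base in bp from the first base of the tRNA gene (x axis) and ordered by upstream edge (y axis). Members of 52 bp or more are blue and have medians of 50 bp before the gene and 9 bp after its first base; other members are orange, and a separate block of them has medians of 39 and 76 bp.

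The widest members show these forms. The member at n-TLtag1 on chromosome 7, whose nearest GENCODE start is that of the elongation factor kinase gene Eef2k at 7251 bp, was 65 bp wide in replicate 1 and 64 bp in replicate 2. It ran from 52 bp before the first base of the tRNA to 12 bp after that base, with a peak height of 5.72 in replicate 1 and 4.02 in replicate 2. At n-TScga2 on chromosome 10 both libraries gave 63 bp with the same ends. At n-TYgta9, 635 bp from a start of Agbl5 on chromosome 5, both gave 63 bp, from 55 bp before the first base of the gene to 7 bp after that base. The 3 members of the widest 10 that were not at tRNA genes were at promoters. They lay 79 bp upstream of Nup153, a nuclear pore gene, at 71 bp in replicate 1 and 68 bp in replicate 2, 68 bp upstream of Ccdc66 at 75 and 61 bp, and 4 bp upstream of Zmynd8, a chromatin reader gene, at 72 and 66 bp. The Ccdc66 member held a CCAAT box.

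The members were found in tall peaks. Peak height is the authors' signal value in an unstated scaling, and it is read here within each library alone. Footprint calls need cuts, so height and the call itself share depth, and the heights are a description. Of the members 96.1% had their centre in a strict replicate 1 peak and 94.7% in a strict replicate 2 peak, against 80.2% and 79.1% of narrower shared footprints. The median height of the holding peak was 2.58 in replicate 1 (quartiles 1.69 and 4.17) and 1.66 in replicate 2 (1.15 and 2.71) for members. For narrower shared footprints it was 1.86 (1.08 and 3.41) and 1.37 (0.868 and 2.35). All strict peaks had medians of 0.932 in replicate 1 and 0.806 in replicate 2. Counted by peak, the 15770 replicate 1 peaks with a member had a median of 2.40, those with only narrower shared footprints 1.25, and those with no footprint 0.526. The cut-rate q-value at the footprint centre was under 0.001 for 99.2% of members in replicate 1 and 97.8% in replicate 2, against 90.1% and 87.3% of narrower shared footprints.

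The share of peaks with a member climbed through the whole range of heights. Over 10 equal height classes of replicate 1 peaks it was 0.0109% in the lowest (1 of 9182 peaks), 4.08% in the fifth, 30.05% in the eighth and 62.2% in the highest. In replicate 2 the same classes had 0.0664%, 8.48%, 38.7% and 59.99%. Even in the tallest class many peaks held none. Most peaks with a member held 1 (14326 of 15770), 1279 held 2, 150 held 3 and 15 held 4, and median height went with the number, at 2.25, 5.10, 6.83 and 8.32.

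**Figure D5:**
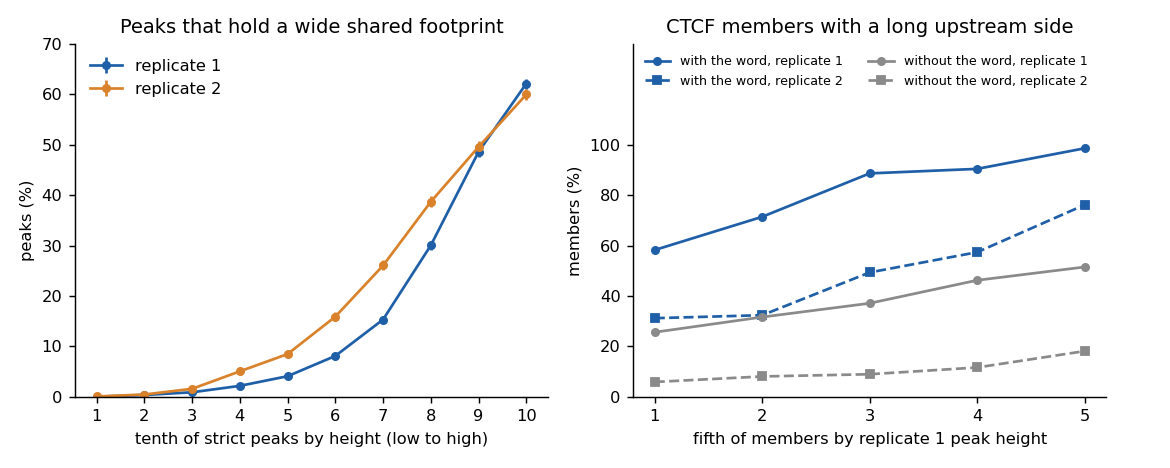
Left, percent of strict peaks that held a wide shared footprint (y axis) in 10 equal classes of peak height (x axis), with exact 95% intervals, for each library. It reaches 62.2% in replicate 1 and 59.99% in replicate 2. Right, percent of CTCF members with a long upstream side (y axis) in 5 equal classes of replicate 1 peak height (x axis), with and without the upstream word, in each library. The word was picked from these same members, and in replicate 1 the share goes up with height both with it (58.3% to 98.6%) and without it (25.6% to 51.5%).

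Height differed with where a member lay and with its motif. Members at promoters had a median height of 4.37 in replicate 1 and 2.87 in replicate 2, and those in intergenic DNA 2.02 and 1.34. CTCF members were in lower peaks, with 2.05 and 1.34, than members with NRF1 (4.61 and 3.09), SP/KLF (4.59 and 3.06) or CREB/ATF elements (4.73 and 3.06). Promoters held 15.6% of CTCF members and 92.9%, 92.7% and 88.1% of the others in this order. Height by motif within a location was not computed, so motif and location cannot be told apart here. The CTCF share was also read within height classes, for sets that differ in width by their rule. In the fourth of 5 equal height classes of replicate 1 peaks, from 1.13 to 1.92, 38.6% of members held CTCF, against 1.47% of narrower shared footprints and 14.9% of wide footprints of replicate 1 without a partner. In the tallest class, which ran from 1.92 to 65.5 and so mixes unlike heights, the shares were 23.4%, 0.473% and 3.92%. Control windows held CTCF in 0.110%, 0.0699% and 0.181% in the fourth class. In the tallest class they did in 0.206%, 0.0848% and 0.148%. The part of height in the CTCF share was not tested.

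The tallest peaks with a member included repeated sequence. The tallest was on chromosome 3, 20616 bp from the noncoding gene Gm25352, at heights of 38.4 and 33.1 in replicates 1 and 2, and the central bases of its member occurred 6 times in the assembly. The next had 3 copies, near Gm15564 on chromosome 16, at 29.8 and 25.2. Single-copy ones followed near Gm43980 on chromosome 6 at 26.03 and 22.9, in an intron of the cytokine receptor gene Il31ra on chromosome 13 at 26.3 and 21.1, and 46 bp past a start of the cold receptor gene Trpm8 on chromosome 1 at 18.6 and 14.2. Over all members 17591 were single-copy by their central 25 bases, 502 had 2 or more copies, and 6.68% were 50% or more repeat-masked, against 8.41% of narrower shared footprints.

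Gene starts of the immediate early and clock lists carried members. Over all protein-coding genes, 5477 of 21924 (24.98%) had a member within 1000 bp of a start, and 39.6% of those with a strict promoter peak did. Of 15 immediate early genes, the rapid transcriptional response of stimulated neurons, 11 had one, Fos, Fosb, Jun, Junb, Arc, Egr1, Egr4, Npas4, Nr4a1, Nr4a3 and Btg2. Of the 12 clock genes 7 had a member, Per1, Per2, Cry1, Cry2, Dbp and the repressor genes Nr1d1 and Nr1d2. Counts were 8 of 16 for cytosolic ribosomal genes, 7 of 15 for genes of mitochondrial respiration, 5 of 10 for CTCF and cohesin genes, 6 of 14 for pan-neuronal and synaptic genes, and 3 of 10 for targets of the repressor REST. Markers of 1 cell type rarely had one. It was 1 of 5 for astrocytes (Gfap), 0 of 6 for inhibitory neurons, 0 of 5 for oligodendrocytes, 0 of 5 for microglia and 0 of 4 for endothelium. Of the other-tissue lists, 1 of 4 liver genes (Apob) and 0 of 4 hindbrain genes had one. In this unsorted tissue, few cells of a type and little opening per cell cannot be told apart.

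Members at 5 of these starts are shown with their sequence. The one 158 bp upstream of Jun, a subunit of AP-1, was 41 bp wide in replicate 1 and 27 bp in replicate 2, in a peak of height 11.2 and 7.29. The Per1 member, 151 bp upstream of this core clock gene, was 28 and 27 bp wide at heights of 11.5 and 7.42 and held a CACGTG E-box. At Rbfox3, which encodes the neuronal marker NeuN, a CTCF member of 51 and 28 bp lay 720 bp upstream, at 2.85 and 1.54. The Gfap member, 85 bp upstream of the astrocyte filament gene, held CTCF and was 34 and 32 bp wide at 2.02 and 1.14. Pds5b, which encodes a cohesin regulator, had a CTCF member of its own 39 bp upstream, 29 and 27 bp wide, at 3.02 and 2.32. Capitals mark the CACGTG E-box or the CTCF core, and the Jun member held none of the listed motifs.
Jun, chr4:95052360-95052400, plus strand: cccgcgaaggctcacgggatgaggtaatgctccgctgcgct
Per1, chr11:69095048-69095085, plus strand: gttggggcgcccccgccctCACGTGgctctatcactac
Rbfox3, chr11:118508043-118508103, plus strand: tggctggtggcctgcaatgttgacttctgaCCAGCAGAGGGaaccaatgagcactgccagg
Gfap, chr11:102900976-102901019, plus strand: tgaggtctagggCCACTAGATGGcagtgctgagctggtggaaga
Pds5b, chr5:150673681-150673719, plus strand: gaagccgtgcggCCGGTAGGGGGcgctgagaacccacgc

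Counted over gene bodies, 8181 of the 21924 protein-coding genes (37.3%) held a member in the body or within 1000 bp on either side of it, and 147 held 5 or more. Several of the highest counts were in loci with long annotated spans. Gm20388, which the annotation draws over 4435 kb of chromosome 8, had 89 members, and Fgfr2, drawn over 2961 kb, had 28. Next came Camta1 with 13 over 945 kb, Gm37240 with 13, the synaptic scaffold gene Dlgap1 with 12, and Lsamp, a neuronal adhesion gene, with 11. Jarid2, a Polycomb cofactor gene, had 10 within 192 kb and none with CTCF, and Arhgap26, Asic2, Diaph1 and Nav2 had 9 each, of which 3, 5, 3 and 3 held CTCF. By chromosome, members were densest on chromosome 11, with 12.1 per Mb, and on X there were 1.75 per Mb. Per 100 strict replicate 1 peaks X had 12.6 members, and the autosomes had 17.8 to 23.1. The animals were males, which carry a single X, and the part of copy number in these values was not tested.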

How the data were processed

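Each library had a pair of peak sets, a footprint set and a table of false discovery rates per base. Per the file headers and descriptions deposited with them, all were made from that library's own filtered mm10 alignments, so nothing was pooled. No source used here names the aligner or the callers. Peak height is a signal deposited by the authors in a scaling that is not stated. The deposited footprints carry a constant p-value threshold of 0.01, and the deposited cut-rate q-values list bases under 0.05. The smaller peak set of each library was used as the strict set.

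From these files, footprints were matched between libraries and placed against GENCODE M21 by their centre, first within 1000 bp of a transcript start, then in an exon, intron or intergenic DNA. Motifs were sought on both strands with a 5 bp flank, and controls were placed with a fixed seed. Sequence and tRNA genes came from the RefSeq copy of GRCm38.p6, whose chromosome names and lengths held all coordinates. Intervals are exact 95% intervals (Clopper-Pearson for shares, conditional on the sum for ratios). The steps for overlap, motifs, controls and location were tested on simulated data. Python 3.11.15, numpy 2.4.6, pandas 2.3.3, scipy 1.17.1, matplotlib 3.10.9 and bedtools 2.31.1 were used.

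The members, the 15 gene lists, the motifs and the alternatives were chosen with earlier results of these data known. The text names the 10 widest members, those in the 10 tallest peaks, examples of the 8 most frequent motifs, the 10 genes with the most members and up to 3 members of each gene list, not all of them in full. The motif examples of the third set, the CTCF forms, the upstream word and the tRNA genes were chosen after their values were seen. With 1 group of 2 libraries no test was run. The member count of 1 gene list and some example regions are not reported here.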

Additional observations from a re-analysis of the deposited data

How the results depend on the processing

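Of 74 alternatives, 54 stayed within the spread (standard deviation) between the libraries taken alone (for counts, within 1.5 times) and 20 moved. The single-library values that set this spread were scored among the alternatives too, so the tally is no independent measure of robustness. For the CTCF ratio the spread was wide, at 1.20 on a log2 scale. A reversal of direction was not scored. The number of members was 10468 with 30 bp in replicate 1 and 25 bp in replicate 2, 10094 with an overlap of 80%, and 15010 to 35673 for footprints of 25 bp or more in a single library. The promoter share was 37.1% with 25 bp in both libraries, 35.3% with 30 and 25 bp, 42.8% with 20 bp in both, 35.3% with 1 member per peak, 35.8% and 48.5% with windows of 500 and 2500 bp, 36.2% with protein-coding starts only, and 37.2% to 40.3% in single libraries. The ratio for any motif was 4.05 without a flank, 2.62 with 10 bp and 1.88 without CTCF, an alternative added after seeing the data, and 2.86 to 3.43 in single libraries. The CTCF ratio was 119 to 385 in single libraries, and 16.4 with 1 mismatch, also added. Median height in replicate 1 was 2.19 to 2.57, and in replicate 2 1.54 to 1.63, for footprints of a single library. In replicate 2 it was 1.78 with an overlap of 80% and 1.55 with 1 member per peak. No paired analysis was possible because there was 1 group. Read depth is unknown, replicate 2 had fewer footprints, and 1 assembly allele was searched. A control window could be placed for 78.7% of the members inside strict replicate 1 peaks and for 99.9% of narrower shared footprints, so the ratios of members leave out more of them.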
